A study of Mus musculus with 12 samples.

Results

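Ganglioside synthesis and the transfer of sialic acid were followed through 10 genes in sorted mouse microglia, with transcript clusters for all 10 among the 16755 at the gene level. The genes were chosen by symbol, with the differences between these same samples already known, above all that of St3gal5. Those differences are therefore given as a description, and any count of them past a threshold is given without being read as a test. St8sia1 had 2 clusters annotated to it alone, of which the one with the higher mean over the 6 arrays was used, and the other 9 genes had 1 each.

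The comparison asks how RNA of microglia differs in mice without Lrrc33, the older symbol of Nrros, whose protein tethers latent TGF-beta1 on myeloid cells. One group held 3 samples labelled Lrrc33-/- (KO-labelled below) and the other 3 samples labelled Lrrc33+/+ (WT below), all from mice 3 weeks old and with no treatment named. Brain cells that were CD45low, CD11b+, CD39+ and Ter119- were collected by flow cytometry, and each sample was read on 1 Affymetrix mouse exon array, whose values are on the log2 scale after RMA. The labels call the samples biological replicates without saying how many mice each held or how the allele was made. The p-values set a difference against the spread between samples, moderated over all clusters, which is not known to be a spread between mice. The number of arrays limits the precision.

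Gangliosides are glycolipids of the outer cell membrane that carry sialic acid. Their synthesis starts when Ugcg adds glucose to ceramide, goes on when galactose is added to make lactosylceramide, and branches where St3gal5 adds the first sialic acid to make GM3, the parent of most gangliosides of the brain. Other sialyltransferases place sialic acid on the sugar chains of glycoproteins, where it is read by Siglec receptors of microglia and other immune cells.

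The median of each array was 6.70 to 6.76 (log2) over the clusters. Nrros itself, the gene named in the genotype, stood at 9.86, 9.89 and 9.83 in KO-labelled samples, against 9.94, 9.88 and 9.60 in WT samples, and the groups overlapped. Its difference was 0.05 (SE 0.09; limma, Benjamini-Hochberg adjusted p = 0.759), it was -0.053 without WT replicate 3, and 0 of its 8 exon-level probesets passed the test, with 0 at an unadjusted p under 0.05. The arrays thus do not show the targeted gene as lowered, and every direction below rests on the genotype labels. No source used here says which part of the gene the allele lacks, and a probeset outside that part would check nothing. Y-linked Eif2s3y stood at 7.72 in WT replicate 3 and at 3.06 to 3.15 in the other 5 samples. Leaving that sample out gave -4.96 for St3gal5, in place of -4.88, and changed no sign among the 10 genes.

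The first letters before the start site are shown for 3 genes, because St3gal5 was the enzyme gene with the lowest KO-labelled level relative to WT, while Ugcg and St8sia4 stood on the other side of zero at the first step of glycolipid synthesis and in polysialic acid synthesis. The windows are the 250 bases before the start from RefSeq on GRCm38.p6, at chr6:72097358-72097607 on the plus strand, chr4:59189300-59189549 on the plus strand and chr1:95667595-95667844 on the minus strand. Capitals mark the GC box GGGCGG on either strand.
St3gal5: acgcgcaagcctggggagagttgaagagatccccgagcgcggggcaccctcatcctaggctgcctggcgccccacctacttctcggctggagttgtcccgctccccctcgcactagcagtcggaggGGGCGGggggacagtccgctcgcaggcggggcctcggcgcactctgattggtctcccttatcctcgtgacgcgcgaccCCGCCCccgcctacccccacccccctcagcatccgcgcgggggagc
Ugcg: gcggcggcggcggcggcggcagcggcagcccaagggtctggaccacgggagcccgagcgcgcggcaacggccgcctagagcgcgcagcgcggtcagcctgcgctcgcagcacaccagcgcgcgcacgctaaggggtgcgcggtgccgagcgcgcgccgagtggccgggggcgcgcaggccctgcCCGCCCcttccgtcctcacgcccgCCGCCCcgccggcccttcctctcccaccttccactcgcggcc
St8sia4: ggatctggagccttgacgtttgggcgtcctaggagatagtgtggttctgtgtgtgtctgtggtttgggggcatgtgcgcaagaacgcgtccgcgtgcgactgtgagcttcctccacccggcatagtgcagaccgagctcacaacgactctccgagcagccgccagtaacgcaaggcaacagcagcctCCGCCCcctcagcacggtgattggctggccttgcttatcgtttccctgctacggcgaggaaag

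St3gal5 held 2 GC boxes, Ugcg 2 and St8sia4 1, and a GC box was found in 32.7% of the 32851 such windows available. Some genes had several windows and others none, so each share is per window. The 3 windows shown were rich in G and C, at 71.6%, 80.4% and 60.4%, against a median of 52.4% over windows. The Smad element CAGAC had 0 matches for St3gal5, 1 for Ugcg and 2 for St8sia4, against a share of 42.2% of all windows with at least 1. The PU.1-type ETS sequence GAGGAAG had 0, 1 and 1 matches in the same order (10.6% of all windows), and neither the AP-1 sequence TGANTCA (6.75%) nor TATAAA (12.4%) occurred in any of the 3. The box CCAAT had 1 match for St3gal5, 0 for Ugcg and 1 for St8sia4 (33.8% of all windows). Both strands were searched, each GC box contains a CpG, and matches of the other motifs did not overlap each other. The windows held 25, 43 and 19 CpG dinucleotides, against a median of 6. RefSeq windows were found for 6 of the 10 genes, the others being St8sia1, St6gal1 and St3gal6. A match is a description of letters and says nothing of binding in these cells.

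Of the 3 glycolipid steps that lead to GM3, the first and the lactosylceramide step stood higher in KO-labelled samples and the last stood far lower. Ugcg, the glucosylceramide synthase (transcript cluster 6913876), had 9.53, 9.54 and 10.15 (log2) in KO-labelled replicates 1 to 3, against 8.40, 8.35 and 8.66 in WT replicates 1 to 3. All KO-labelled samples lay above all WT samples, and KO-labelled replicate 3 stood above the other two of its group. The difference was 1.27 (SE 0.18), or 2.41-fold, and 1.07 without KO-labelled replicate 3. B4galt6, which encodes a lactosylceramide synthase (6863783), had 11.03, 11.01 and 11.01 in KO-labelled samples, against 9.71, 9.79 and 9.79 in WT samples. The 2 groups were tight and far apart, with a difference of 1.26 (SE 0.05), or 2.39-fold.

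St3gal5, the GM3 synthase (6946954), had 5.29, 5.16 and 5.21 (log2) in KO-labelled samples, against 10.25, 10.12 and 9.94 in WT samples. The difference of -4.88 (SE 0.09) put the KO-labelled level at 3.39% of WT, 29.5-fold lower, and ranked 5 among the 16755 clusters counted from the lowest difference. All KO-labelled values lay under the median of all cluster means (6.73) and all WT values well above it. RMA pulls dim signals towards a floor, so the fold can be too small. It also depends on the summary, since the medians of exon-level probesets gave a smaller difference, -3.93. In sorted bulk RNA, fewer cells with a transcript and less of it per cell cannot be told apart.

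The enzymes that act on GM3 or lactosylceramide did not share that pattern. St8sia1, the GD3 synthase (6958078), had 5.24, 5.58 and 5.41 in KO-labelled samples, against 5.58, 5.51 and 5.42 in WT samples. The groups overlapped under the median of all clusters, with a difference of -0.09 (SE 0.09). Its second cluster (6958071) was dimmer still, at 3.52 to 4.14 in KO-labelled samples and 3.79 to 4.13 in WT samples. B4galnt1, which makes GM2 and GD2 (6771546), had 9.10, 9.22 and 8.93 in KO-labelled samples, against 8.43, 8.53 and 8.39 in WT samples. Its groups did not overlap, and the KO-labelled level was 1.55-fold higher (0.63, SE 0.08).

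**Figure D1:**
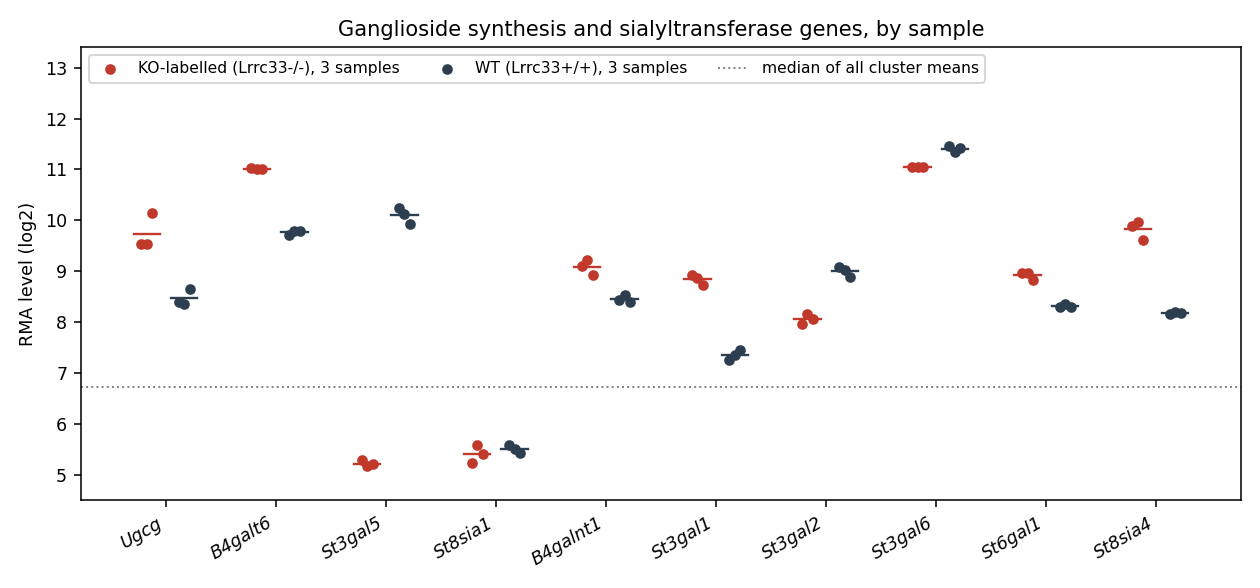
RMA level (log2) of each of the 10 genes in the 3 KO-labelled samples (left of each pair) and the 3 WT samples (right), with group means as short lines and the median of all cluster means (6.73) as a dotted line. St3gal5 alone crosses the dotted line between groups, and St8sia1 lies under it in both. Heights compare groups within a gene, not genes.

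Sialyltransferases that mainly end the chains of glycoproteins or complex gangliosides stood on both sides of zero. St3gal1, which caps O-glycans of the core type with sialic acid (6836366), had 8.93, 8.87 and 8.73 in KO-labelled samples, against 7.26, 7.36 and 7.46 in WT samples. Its KO-labelled level was 2.80-fold higher (1.49, SE 0.08), with a wide gap between groups. St3gal2, its close relative, which also sialylates complex gangliosides of the brain (6979111), had 7.96, 8.17 and 8.06 in KO-labelled samples, against 9.09, 9.02 and 8.89 in WT samples. It stood on the opposite side, 1.92-fold lower (-0.94, SE 0.08), and its groups did not overlap. St3gal6, which sialylates galactose at chain ends and helps make selectin ligands (6846497), had 11.05, 11.05 and 11.04 in KO-labelled samples, against 11.46, 11.34 and 11.43 in WT samples. The gap was small beside those of the others but wider than the spread within either group (-0.36, SE 0.05).

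St6gal1, which adds the sialic acid of N-glycans bound by the B cell lectin CD22 (6840115), had 8.96, 8.97 and 8.83 in KO-labelled samples, against 8.29, 8.35 and 8.30 in WT samples. The difference was 0.60 (SE 0.06), or 1.52-fold. St8sia4, a polysialyltransferase that builds long chains of sialic acid on a few carrier proteins (6760847), had 9.90, 9.98 and 9.62 in KO-labelled samples, against 8.16, 8.20 and 8.19 in WT samples. It had the highest difference of the 10 genes, 1.65 (SE 0.10), or 3.13-fold.

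In all, 6 of the 10 genes stood higher and 3 lower past limma's threshold (Benjamini-Hochberg adjusted p under 0.05), and 9 had groups without overlap. Among all clusters 28.4% passed, 14.4% higher and 14.0% lower, and 42.3% had groups without overlap. Since the genes were chosen with these differences known, nothing is read from those counts. The median difference was 0.62 for the 10 genes and -0.02 for all clusters, of which the 5th and 95th percentiles were -0.60 and 0.66. St3gal5, at -4.88, stood 29.5-fold lower, and the next lowest of the 10 was St3gal2 at 1.92-fold lower. St8sia4, St3gal1, Ugcg and B4galt6 ranked 201, 236, 310 and 316 among the 16755 clusters counted from the highest difference.

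**Figure D2:**
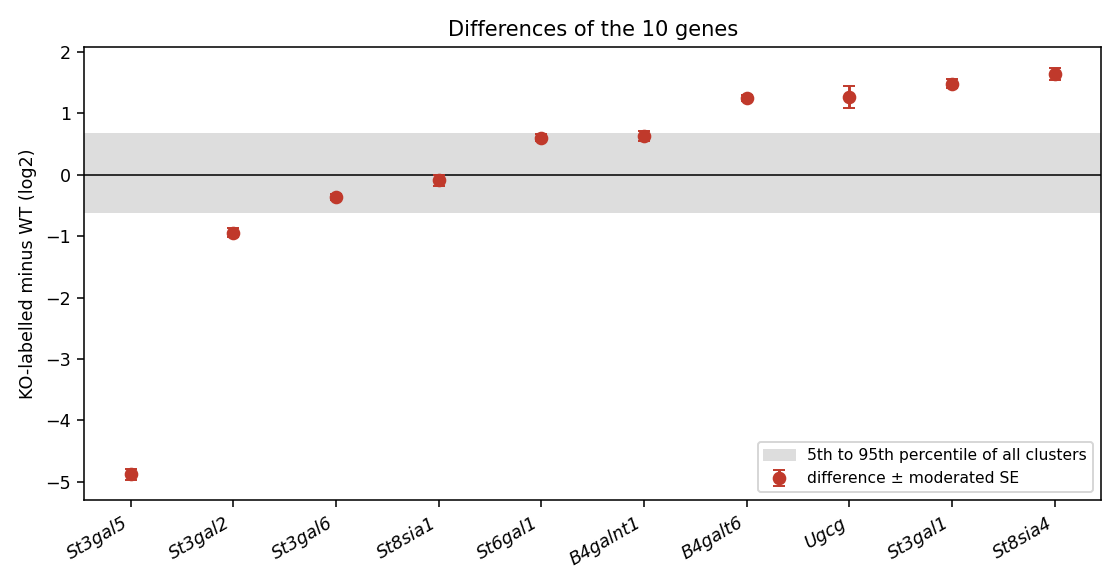
KO-labelled minus WT difference (log2) of each of the 10 genes, ordered from lowest to highest, with moderated standard errors as bars. The grey band spans the 5th to the 95th percentile of all 16755 clusters (-0.60 to 0.66), and St3gal5 lies at -4.88, far below it.

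Exon-level probesets, which summarise the same 6 arrays again and are no independent evidence, showed how evenly each gene differed along its annotated probesets. The 10 genes had 147 probesets with 1 symbol, of which 54 were called higher and 18 lower, where 4.75% of all 1236087 probesets were called in either direction. These sets are unlike, since 907200 of all probesets had no symbol. Of the 147, 133 reached the median of all probesets in the higher group. The share called among probesets with 1 symbol is not given here. The choice of the genes shapes those calls too, and nothing is read from them. B4galt6 was the most even, with 13 probesets between 1.03 and 1.44. St6gal1 had 15 between 0.34 and 0.93, and St3gal6 15 between -0.93 and -0.19. All 20 probesets of St3gal1 lay above zero (0.13 to 1.93), as did the 10 of St8sia4 (0.25 to 2.09) and the 14 of B4galnt1 (0.11 to 0.77). All 14 of St3gal2 lay below zero (-1.51 to -0.02). Ugcg had 12 probesets between 0.82 and 1.39 and 1 at -0.03, which was dim in both groups (1.92 in KO-labelled and 1.94 in WT samples).

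St3gal5 was uneven. Of its 11 probesets, 9 lay between -5.85 and -3.53, and 2 lay near zero. One of these, 4517063, had 9.13, 9.27 and 8.93 in KO-labelled samples, against 9.55, 9.48 and 9.34 in WT samples. It was thus bright in both groups, with a difference of -0.35 (SE 0.16). The other, 5325880, had 5.87, 5.70 and 5.87 in KO-labelled samples, against 6.19, 6.39 and 5.74 in WT samples, where the groups overlapped near the median of all probesets (5.81). No source used here gives probeset positions, and whether these 2 lie in the same transcripts as the other 9 was not tested. St8sia1 had 22 probesets from -0.59 to 1.48, 11 of them under that median in both groups. The highest of them, 5535644, averaged 8.24 in KO-labelled samples and 6.76 in WT samples, without overlap. Its difference of 1.48 (SE 0.23) stood apart from the other 21, of which the highest was 0.40.

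**Figure D3:**
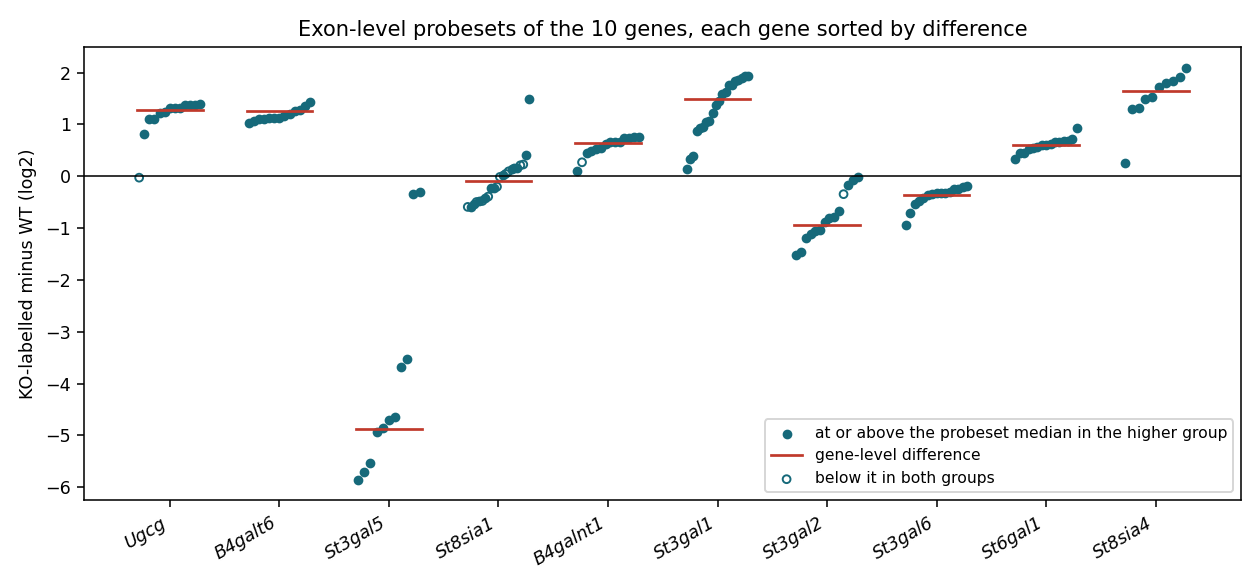
KO-labelled minus WT difference (log2) of each of the 147 exon-level probesets, sorted within each gene, with the gene-level difference as a red line. Filled points reach the median of all probesets in the higher group and open points lie under it in both. For St3gal5, 9 points lie between -5.85 and -3.53 and 2 near zero.

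The genes whose gene-level profile lay nearest that of St3gal5 were found by the root-mean-square distance between centred values over the 6 arrays, among 14847 genes. They were Sparc, which encodes a matricellular glycoprotein (distance 0.07), the tight junction scaffold gene Tjp1 (0.09), the adhesion receptor gene Adgrg1 (0.11), the fructose transporter gene Slc2a5 (0.14) and the adenosine receptor gene Adora3 (0.17). Sparc and Slc2a5 are also on the list of homeostatic microglia genes used below. The differences of the 5 nearest genes ran from -4.92 to -4.63, which is what the measure picks out. With medians of exon-level probesets Adora3 stood at -0.84, against -5.04 to -4.46 for the others and -3.93 for St3gal5.

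Beyond the 10 genes, 79 genes of sialic acid and glycosphingolipid metabolism were listed by role, with earlier results of these data known. Of these, 72 had a cluster of their own. In KO-labelled samples 20 of the 72 rose and 9 fell (27.8% and 12.5%, beside 14.4% and 14.0% of all clusters), and 43 did not pass. Only 20 of the 72 lay under the median of all clusters in both groups, so the clusters as a whole are no background matched for level. With dim clusters left out, 21 rose and 8 fell of 52. The share of all clusters called under that filter is not given here, and 14.4% and 14.0% are not its match. The shares are given as a description. The median difference of the 72 was 0.09, beside -0.02 for all clusters. By list, it was 0.32 for other steps of glycosphingolipid synthesis, 0.35 for carriers of polysialic acid, 0.21 for sialidases and glycolipid breakdown and 0.14 for ceramide supply. It was 0.01 for sialic acid supply, -0.06 for other sialyltransferases and -0.07 for other galactosyltransferases. On exon-level gene values, the medians of a gene's probesets, the counts were 12 and 6 of 76. Of those, 11 and 4 were among the 20 and 9 called at the gene level. The share of all genes called on exon-level values is not given here. At the gene level without WT replicate 2, 5 fell. The largest changes were rises of Cmah and Galc and a fall of B4galt4.

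Cmah, the hydroxylase that turns the sialic acid Neu5Ac into Neu5Gc in mice, had 9.91, 9.97 and 9.70 (log2) in KO-labelled samples, against 6.73, 7.03 and 6.78 in WT samples. It rose by 3.02 (SE 0.11), or 8.09-fold (limma, Benjamini-Hochberg adjusted p = 2.7e-06). Of the other 7 measured genes of sialic acid supply, Casd1, which acetylates sialic acid, fell by 0.42 (SE 0.07; adjusted p = 0.0046), and Gne, the key enzyme of sialic acid synthesis, fell by 0.25 (SE 0.06; adjusted p = 0.014). Gne missed the threshold on exon-level gene values (-0.14, adjusted p = 0.362). The remaining 5 did not pass, among them Renbp (0.16) and Nans (0.16).

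Of 13 other sialyltransferases measured, 1 rose and 2 fell (7.69% and 15.4%, beside 14.4% and 14.0% of all clusters), and 9 were under the median of all clusters in both groups. St6galnac4, which adds sialic acid to short O-glycans, had 8.80, 8.81 and 8.83 in KO-labelled samples, against 9.63, 9.53 and 9.42 in WT samples. It fell by 0.71 (SE 0.07), at an adjusted p of 0.00023 (limma, Benjamini-Hochberg). St3gal4, another sialyltransferase of chain ends, rose by 0.43 (SE 0.11; adjusted p = 0.021), a call missed without WT replicate 1 or 3 and on exon-level gene values (adjusted p = 0.062, 0.065 and 0.159). St8sia6 fell by 0.32 (SE 0.08; adjusted p = 0.029), a call missed on exon-level gene values (adjusted p = 0.072) and without any 1 sample other than WT replicate 3 (up to 0.081). St3gal3 (-0.12) and St6galnac5 (-0.12) did not pass.

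Genes of other glycosphingolipid steps passed in 6 of 11 cases, all higher (54.5%, beside 14.4% of all clusters). B3galnt1, the globoside synthase, had 10.03, 10.13 and 9.95 in KO-labelled samples, against 8.80, 8.59 and 9.20 in WT samples. It rose by 1.17 (SE 0.15; limma, Benjamini-Hochberg adjusted p = 0.0011). Gbgt1, which extends globoside further, rose by 0.74 (SE 0.06; adjusted p = 0.00017), and A4galt, which turns lactosylceramide into the globo-series lipid Gb3, by 0.63 (SE 0.13; adjusted p = 0.0094), though its level stayed under the median of all clusters in both groups. B4galt5, the other lactosylceramide synthase gene, rose by 0.55 (SE 0.09; adjusted p = 0.0042), and so did the glycolipid carriers Gltp (0.39) and Plekha8 (0.32). These last 3 missed the threshold on exon-level gene values (adjusted p = 0.120, 0.082 and 0.088). Gal3st1 (-0.15) and Ugt8a (0.14), which make sulfatide and galactosylceramide, did not pass. B3gnt5, named after its values were seen, stood at -0.02 (adjusted p = 0.883) and on exon-level gene values at 0.44 (adjusted p = 0.048).

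Among the other galactosyltransferases of the same family, B4galt4 had 7.33, 7.37 and 7.61 in KO-labelled samples, against 9.04, 8.94 and 8.93 in WT samples. It fell by 1.54 (SE 0.08), or 2.90-fold (limma, Benjamini-Hochberg adjusted p = 1.9e-05), while B4galt1 (-0.08), B4galt3 (-0.07) and 1 more did not pass. In the supply of ceramide, 2 of 17 genes rose and 1 fell (11.8% and 5.88%, beside 14.4% and 14.0% of all clusters). Cers6, a ceramide synthase for shorter fatty acids, had 8.37, 8.39 and 8.35 in KO-labelled samples, against 9.15, 9.33 and 9.30 in WT samples. It fell by 0.89 (SE 0.06; adjusted p = 6.6e-05). Sptlc1, a subunit of the first enzyme of sphingolipid synthesis, rose by 0.24 (SE 0.06; adjusted p = 0.024) and the ceramide carrier gene Cert1 by 0.23 (SE 0.07; adjusted p = 0.036). Both small rises missed the threshold without KO-labelled replicate 1, WT replicate 1 or WT replicate 2, and also without KO-labelled replicate 3 for Sptlc1 and 2 for Cert1. The adjusted p then reached 0.082 for Sptlc1 and 0.119 for Cert1, and on exon-level gene values it was 0.257 and 0.082. Cert1 also missed the threshold with the replicate number as a block (adjusted p = 0.092). Ormdl2 (0.31, adjusted p = 0.090) and Sptssa (0.28, adjusted p = 0.052) did not pass. Ormdl2 passed with dim clusters left out and without WT replicate 3 (adjusted p = 0.048 and 0.017). Sptssa passed with dim clusters left out, with a trended prior variance and with the mean of a gene's clusters (adjusted p = 0.025, 0.041 and 0.047). Degs1, a desaturase gene of ceramide synthesis named after its values were seen, stood at 0.17 (adjusted p = 0.129) but on exon-level gene values at -0.73 (adjusted p = 0.013).

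Genes of sialidases and glycolipid breakdown rose in 8 of 16 cases and fell in 3 (50% and 18.75%, beside 14.4% and 14.0% of all clusters). Galc, which cleaves galactosylceramide and is lost in Krabbe disease, had 9.74, 9.46 and 9.53 in KO-labelled samples, against 7.42, 7.61 and 7.66 in WT samples. It rose by 2.01 (SE 0.10), or 4.03-fold (limma, Benjamini-Hochberg adjusted p = 1.1e-05). Glb1, the beta-galactosidase that acts on GM1, rose by 0.69 (SE 0.05; adjusted p = 8.2e-05). The sialidase gene Neu1 (0.38), the ceramidase gene Asah1 (0.37), Hexa (0.37) and the GM2 activator gene Gm2a (0.32) rose by less, with standard errors from 0.05 to 0.08. Neu1, Asah1 and Gm2a missed the threshold on exon-level gene values (adjusted p = 0.149, 0.101 and 0.062). The 3 that fell, named after their values were seen, were Scarb2 (-0.21), the saposin precursor gene Psap (-0.20) and Gba2 (-0.20), at adjusted p = 0.037, 0.017 and 0.020. These calls were missed on exon-level gene values (adjusted p = 0.240, 0.105 and 0.210). Scarb2 was also missed without any 1 sample other than KO-labelled replicate 1 (adjusted p up to 0.123). Psap and Gba2 were missed without KO-labelled replicate 1, WT replicate 1 or WT replicate 2, and Gba2 also without WT replicate 3 (up to 0.062 for Psap and 0.077 for Gba2). After a second quantile normalization Psap stood at -0.08 (adjusted p = 0.271). Gla (-0.16) and Smpd1 (0.14) did not pass, but Gla passed on exon-level gene values (-0.39, adjusted p = 0.026). Nanp, B4galt2, Cers3 and Nrp2 had exon-level gene values alone and did not pass.

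Of the carriers of polysialic acid, the product of St8sia4, Cadm1 rose by 0.72 (SE 0.09; limma, Benjamini-Hochberg adjusted p = 0.00096) and Glg1 by 0.35 (SE 0.05; adjusted p = 0.0023). Ncam1, the classical carrier, had 7.42, 7.42 and 7.30 in KO-labelled samples, against 7.37, 8.40 and 7.97 in WT samples. The groups overlapped and it did not pass (-0.53, SE 0.23; adjusted p = 0.146), but without WT replicate 1 it did (-0.80, adjusted p = 0.0078).

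**Figure D4:**
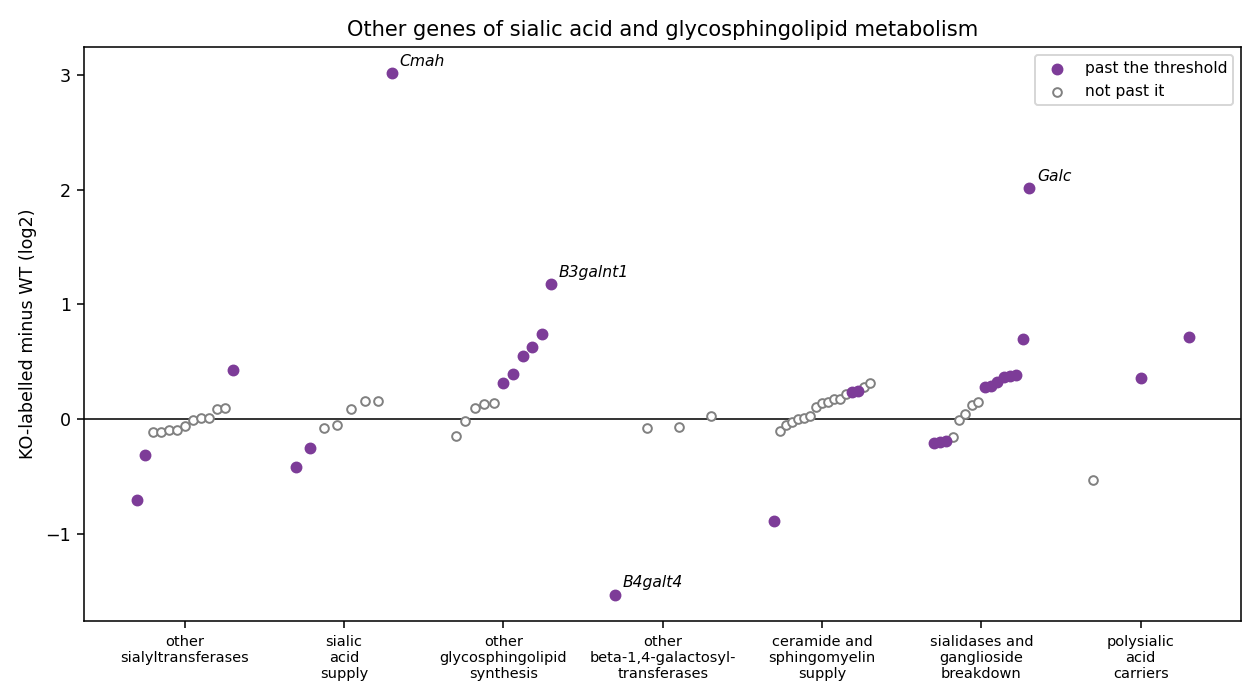
KO-labelled minus WT difference (log2) of the 72 measured genes outside the 10, by list and sorted within it, with filled points past limma's threshold and open points not past it. Names are printed where the difference exceeds 1 in size, for Cmah (3.02), Galc (2.01), B3galnt1 (1.17) and B4galt4 (-1.54).

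Marker genes of some lists moved with these differences. All marker lists were chosen with earlier results of these data known, so their counts are given as a description. All 14 measured genes of homeostatic microglia fell, where 14.0% of all clusters fell and 14.4% rose. The mean level of the list was 9.89 to 9.99 (log2) in KO-labelled samples and 12.24 to 12.27 in WT samples. Both lie above the median of all cluster means (6.73), so the clusters as a whole are no background matched for level here either. Sizes varied widely, from -5.79 for Sall1 to -0.24 for Csf1r, which stayed at 12.92 in KO-labelled samples. Of 13 genes of border-associated macrophages, 12 rose and 0 fell, with mean levels of 11.26 to 11.32 in KO-labelled samples and 9.09 to 9.15 in WT samples. The part of such cells in the values of the 10 genes was not tested. Of 11 neuronal genes 0 passed and 10 lay under the median of all clusters in both groups, with mean levels of 5.85 to 5.98 in KO-labelled samples and 5.84 to 5.92 in WT samples. Of 10 genes of the oligodendrocyte lineage 1 rose and 0 fell, and the mean levels were 6.70 to 6.90 in KO-labelled samples and 6.71 to 6.83 in WT samples.

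In the lists for monocytes, neutrophils, lymphocytes and NK cells, astrocytes, and endothelial and mural cells, 0 genes rose, while 4 of 7, 1 of 10, 1 of 8, 1 of 8 and 2 of 10 fell. Among all clusters 14.0% fell. Mean levels of the monocyte list were 5.22 to 5.70 in KO-labelled samples and 5.85 to 6.03 in WT samples. Those of the astrocyte list were 6.87 to 6.93 in KO-labelled samples and 7.11 to 7.39 in WT samples. The lymphocyte list had means of 5.58 to 5.92 in KO-labelled and 5.97 to 6.10 in WT samples. Means of the endothelial and mural list were 5.92 to 6.01 in KO-labelled and 6.16 to 6.57 in WT samples. Both lists were dim on average, but not every gene that fell in them was. Il7r stood at 8.91 in WT samples (difference -3.06) and Pecam1 at 8.14 (-1.43), above the median of all clusters, and Kdr at 6.11 (-0.75), under it. Slc1a3 fell in the astrocyte list (-1.50) and Csf3r in the neutrophil list (-1.20). Neither of the 2 measured erythroid genes passed. The neutrophil list varied most within groups, with mean levels of 6.46 to 7.63 in KO-labelled samples and 7.35 to 8.36 in WT samples.

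**Figure D5:**
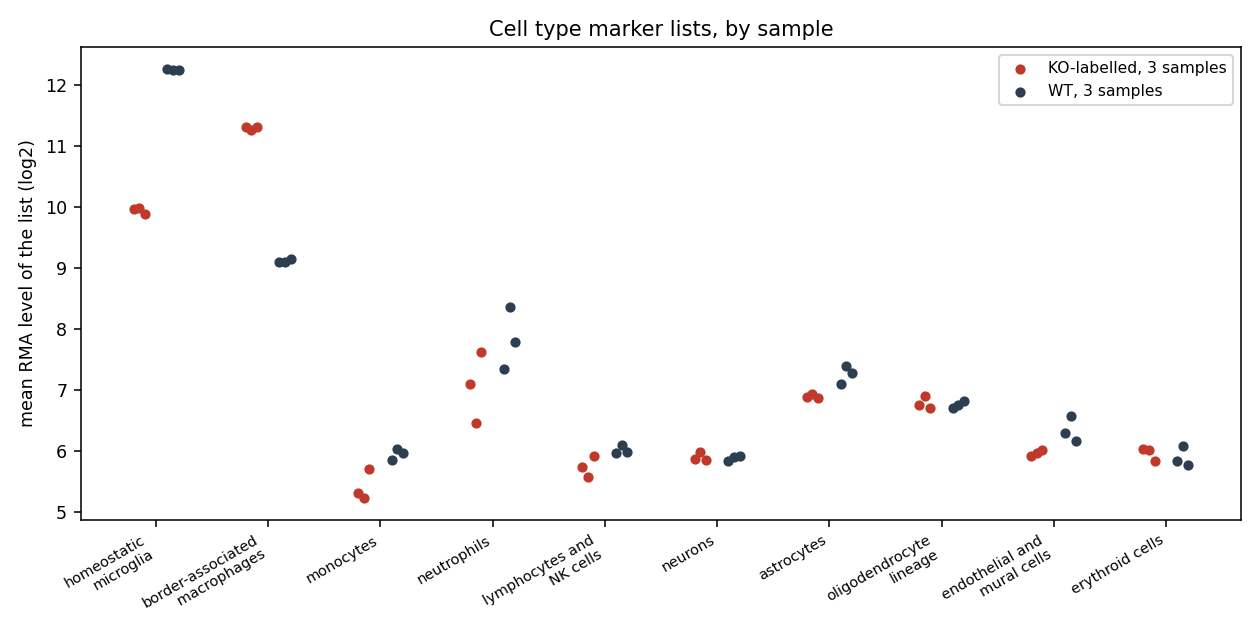
Mean RMA level (log2) of the measured genes of each marker list, with 1 point per sample, KO-labelled left of WT. The homeostatic microglia list is lower and the border-associated macrophage list higher in KO-labelled samples, and the neuronal and oligodendrocyte lists overlap between groups.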

How the data were processed

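RNA of sorted microglia from 3 Lrrc33-/- and 3 Lrrc33+/+ samples was measured on Affymetrix mouse exon arrays with 1 channel. The deposited values are on the log2 scale. Per the submitters' processing notes the authors used RMA, and for the exon level oligo and limma are also named, without role or version. No source used here names the array annotation or genome build, and with no scanner files used here the background correction could not be varied. The gene level held 16755 clusters, of which 14996 had 1 symbol, 1019 several and 740 none. The exon level held 1236087 probesets, of which 321091 had 1 symbol, 7796 several and 907200 none. The platform tables' symbols were updated through RefSeq (GRCm38.p6), which matched all 14996 at the gene level and 320193 at the exon level. All columns were mapped, with 0 left over, and exon-level columns were read as another summary of these 6 arrays.

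Differences are KO-labelled minus WT, with moderated standard errors from limma 3.58.1 in R 4.3.3 (lmFit and eBayes, two-sided, no covariate), fitted over all clusters and adjusted by Benjamini-Hochberg, with a threshold of 0.05. The fit was tested on simulated data first. Where a gene had several clusters, the one with the highest mean stood for it. Alternatives were a replicate block, each sample left out, dim clusters left out, a second quantile normalization, a trended prior variance, gene values from medians of exon-level probesets and means over a gene's clusters. The 10 genes, the 7 pathway lists and the marker lists were chosen with earlier results of these data known. Named were all 10 genes, Nrros, up to 6 genes past the threshold and up to 2 not past it per pathway list by size of difference, and the 5 genes nearest St3gal5. No value is compared between genes as a level.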

Additional observations from a re-analysis of the deposited data

How the results depend on the processing

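The difference of St3gal5 was -4.96 to -4.81 with each sample left out, and -3.93 on exon-level gene values. No called difference among the 10 genes changed sign under any alternative. On exon-level gene values St8sia1, which was not called, stood at -0.33 (SE 0.14), in place of -0.09. St3gal1 (1.65), St3gal6 (-0.30), St6gal1 (0.49) and B4galt6 (1.19) also shifted there by more than their pooled standard deviation within groups. The count of other pathway genes that rose was 20, and 16 to 22 with each sample left out, 19 with the replicate block and 12 on exon-level gene values (11 shared). The count that fell was 9, and 5 to 7 with each sample left out (5 without WT replicate 2), 6 with the replicate block and 6 on exon-level gene values (4 shared). Whether samples with the same number share more than that number cannot be decided here. Their deviations from the group means correlated at -0.03, -0.01 and 0.04 across clusters. Samples with different numbers spanned the same range, -0.03 to 0.04. With the block Cert1, Scarb2, Psap and Gba2 missed the threshold (adjusted p = 0.092, 0.080, 0.059 and 0.063) and Ormdl2 passed it (0.029). Of 27 named pathway genes past the threshold, 13 kept their call under every alternative that gave them a value, and 7 lost it only on exon-level gene values, where the cause was not tested. On exon-level gene values the sign turned for 13 of 72 pathway genes, 0 of them past the threshold at the gene level and 2 past it there, Degs1 (-0.729) and B3gnt5 (0.441). Nrros gave -0.053 without WT replicate 3, where it ranged up to 0.118 with other samples left out. B4galt1 gave 0.019 without WT replicate 3, and ranged down to -0.154 with others left out. On exon-level gene values Renbp gave -0.18 and Ugt8a -0.029. B3gnt5 also gave 0.0064 after a second quantile normalization, and -0.077 to 0.019 with each sample left out. Dim signals, such as those of St8sia1, limit what these arrays can show, and 3 arrays a group limit the rest.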
